A study of Mus musculus with 27 samples.

Results

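Class I antigen presentation was followed in NMuMG cells through the 8 genes H2-K1, H2-D1, B2m, Tap1, Tap2, Tapbp, Psmb8 and Psmb9. The 8 genes were taken by name, out of 24892 gene symbols that the 2 tables of RNA levels hold together, by a rule that uses no measured threshold. MHC class I molecules show short peptides from inside the cell to CD8+ T cells. The proteasome cuts proteins into peptides, the TAP transporter carries them into the endoplasmic reticulum, tapasin holds the empty class I molecule beside the transporter, and the loaded heavy chain leaves for the cell surface together with β2-microglobulin. Epithelial cells carry a basal level of these proteins, and interferons are the known inducers of the whole set, including the immunoproteasome subunits that replace their constitutive counterparts.

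NMuMG, the cells used throughout, are non-tumour epithelial cells of the mouse mammary gland. They undergo an epithelial-to-mesenchymal transition (EMT) on addition of the growth factor TGF-β, here at 1 to 5 ng/ml for 8 or 24 h. RNA-seq covered parental NMuMG cells, cells carrying a lentivirus with an irrelevant shRNA (control) and cells carrying an shRNA against lamin B1 (KD), each untreated, at 8 h and at 24 h with 2 libraries per group, so 6 parental and 12 shRNA libraries. Control and KD cells were both infected and selected, so the comparison between them holds the vector constant, while parental cells carry none. Lamin B1 ChIP-seq on a euchromatin-enriched fraction and ATAC-seq, which maps accessible DNA, gave 1 library per time point in cells without shRNA. The study's methods call the 2 libraries of a group biological replicates without saying how the cultures were kept apart, and with 2 per group the p-values measure the spread between these libraries only.

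Lmnb1, the target of the knockdown, read 29.2 and 36.5 FPKM (fragments counted relative to transcript length and to the mapped reads of the library) in untreated control cells and 9.01 and 9.27 in untreated KD cells. At 8 h it read 32.8 and 32.1 in control and 7.79 and 8.14 in KD cells, and at 24 h 18.4 and 17.9 against 4.37 and 7.52, so the groups did not overlap at any time and the knockdown was partial. Of the 9 epithelial markers looked at, 8 reached 1 FPKM in each table, with summed levels of 4338 to 7070 FPKM. Of 9 immune markers 1 parental and 2 shRNA entries reached 1 FPKM, with sums of 1.35 to 2.95 FPKM, and Ptprc, which marks all leukocytes, never exceeded 0.0178. The 3 endothelial markers stayed under 1 FPKM in every library, with sums of at most 1.51 FPKM. In the shRNA table the 10 highest genes took 11.4 to 16.9% of the summed FPKM in untreated and 17.9 to 40.4% in TGF-β-treated libraries, and the median change of all tested genes with TGF-β was −0.14 at 8 h and −0.13 at 24 h in control cells and −0.13 and −0.10 in KD cells on the log2 scale. In the parental table that median was −0.05 and −0.02.

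The promoters of members whose results follow are shown as the bases just upstream of the RefSeq transcription start. They are printed because accessible sites were found there and because H2-K1 and H2-D1 share their upstream elements. Listed lamin B1 peaks overlapped the printed bases of Tapbp and of Tap1 and Psmb9 only. RefSeq windows were available for 7 of the 8 members, Tap2 being without an entry, and each was placed on mm9 by an exact match. Capitals mark the motifs that were found, GGGATTCC (the NF-κB site core of class I promoters), TGACGC (a CRE-like element), GAAANNGAA (the core of an interferon-stimulated response element) and ATTGG or its complement CCAAT (the NF-Y box). The H2-K1 stretch is chr17:34137279-34137528 on the minus strand, that of H2-D1 chr17:35399789-35400038 on the plus strand, that of B2m chr2:121973173-121973422 on the plus strand and that of Tapbp chr17:34056173-34056422 on the plus strand. Tap1 and Psmb9 face away from each other, and the 225 bases between their RefSeq starts, chr17:34324276-34324500, are given on the strand of Tap1.
H2-K1: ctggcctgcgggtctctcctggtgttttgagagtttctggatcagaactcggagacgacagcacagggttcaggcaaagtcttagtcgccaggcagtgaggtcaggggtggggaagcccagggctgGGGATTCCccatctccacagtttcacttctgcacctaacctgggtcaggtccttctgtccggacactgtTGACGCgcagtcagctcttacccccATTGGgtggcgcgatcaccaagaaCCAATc
H2-D1: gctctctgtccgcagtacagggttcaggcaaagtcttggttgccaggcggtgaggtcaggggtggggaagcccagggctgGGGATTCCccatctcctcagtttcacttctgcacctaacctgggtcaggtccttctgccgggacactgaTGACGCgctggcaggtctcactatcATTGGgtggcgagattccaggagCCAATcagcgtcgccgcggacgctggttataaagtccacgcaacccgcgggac
B2m: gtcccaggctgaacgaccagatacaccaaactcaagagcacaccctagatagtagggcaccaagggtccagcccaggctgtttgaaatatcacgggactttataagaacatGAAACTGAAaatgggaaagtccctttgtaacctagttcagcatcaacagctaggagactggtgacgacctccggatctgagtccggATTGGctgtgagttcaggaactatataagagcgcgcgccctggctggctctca
Tapbp: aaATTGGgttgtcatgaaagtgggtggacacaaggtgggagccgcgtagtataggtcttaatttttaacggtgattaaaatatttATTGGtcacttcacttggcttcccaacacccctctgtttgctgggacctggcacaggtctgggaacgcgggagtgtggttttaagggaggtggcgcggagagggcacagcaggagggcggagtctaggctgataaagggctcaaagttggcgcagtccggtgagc
Tap1 to Psmb9: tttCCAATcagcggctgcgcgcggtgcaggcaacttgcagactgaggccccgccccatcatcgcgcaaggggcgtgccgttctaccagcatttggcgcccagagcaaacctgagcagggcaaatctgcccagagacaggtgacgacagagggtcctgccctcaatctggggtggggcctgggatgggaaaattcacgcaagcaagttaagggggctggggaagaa

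Aligned without gaps on the NF-κB core, the H2-K1 and H2-D1 stretches were identical at 169 of 204 bases (82.8%), and in both genes the CRE-like element began 69 bases and the NF-Y box 94 bases after the start of that core. Upstream windows of the same length of 250 bases were read for all RefSeq genes, 32851 windows in all, of which 0.889% held GGGATTCC and 6.12% held TGACGC on either strand. Among the 7 members with a window these motifs occurred in the 2 heavy chain genes H2-K1 and H2-D1 only. GAAANNGAA was found in B2m, against 7.13% of all windows, and ATTGG in 6 of the 7 members, all but Psmb8, against 33.8%. Tap1 and Psmb9 were counted through the same ATTGG site in their shared interval. With the likeness of H2-K1 and H2-D1, the 6 are not independent. Both heavy chain stretches hold tttcacttc after the NF-κB core. Read on the other strand, these letters have GAA before GAAA, an order that GAAANNGAA cannot match. That order was not searched for, so the missing match does not show that H2-K1 and H2-D1 lack an interferon element. TTCNNNGAA (the interferon-γ-activated site) was found in Psmb8, against 7.02%. TGACGT, the palindromic Smad site GTCTAGAC and the AP-1 site TGANTCA, present in 6.47%, 0.167% and 6.75% of all windows, were in none of the 7. No marked motif overlapped another. These are matches of letters and do not show that a factor was bound. The H2-D1 and Tapbp stretches lie downstream of the outermost start of the GENCODE gene model, since their RefSeq starts lie further inside the gene.

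The members fell into abundant and scarce RNAs. B2m, the light chain, was by far the most abundant, with a mean of 283 FPKM over the parental and 286 over the shRNA libraries, above 97.5% and 97.3% of tested genes. Tapbp, which encodes tapasin, followed with means of 36.6 and 31.5 FPKM, then the heavy chains H2-D1 with 31.5 and 28.8 and H2-K1 with 17.9 and 15.1. The ranges of Tapbp (16.7 to 55.2 FPKM in the shRNA table) and H2-D1 (21.7 to 39.5) overlapped. The transporter subunits Tap1 and Tap2 had means of 0.719 and 0.624 FPKM in the parental table and 0.941 and 0.502 in the shRNA table. The immunoproteasome subunits Psmb8 and Psmb9 averaged 0.111 and 0.223 FPKM in the parental table and 0.0616 and 0.122 in the shRNA table, and neither exceeded 0.449 in any library. In bulk RNA a lower level in every cell and fewer expressing cells cannot be told apart. FPKM is a level per length of transcript, so levels can be set beside each other between genes, with the reserve that H2-K1 and H2-D1 are near-identical paralogs whose shared reads the authors' counting could have split, and that the cells may carry class I alleles that differ from the mm9 reference.

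**Figure D1:**
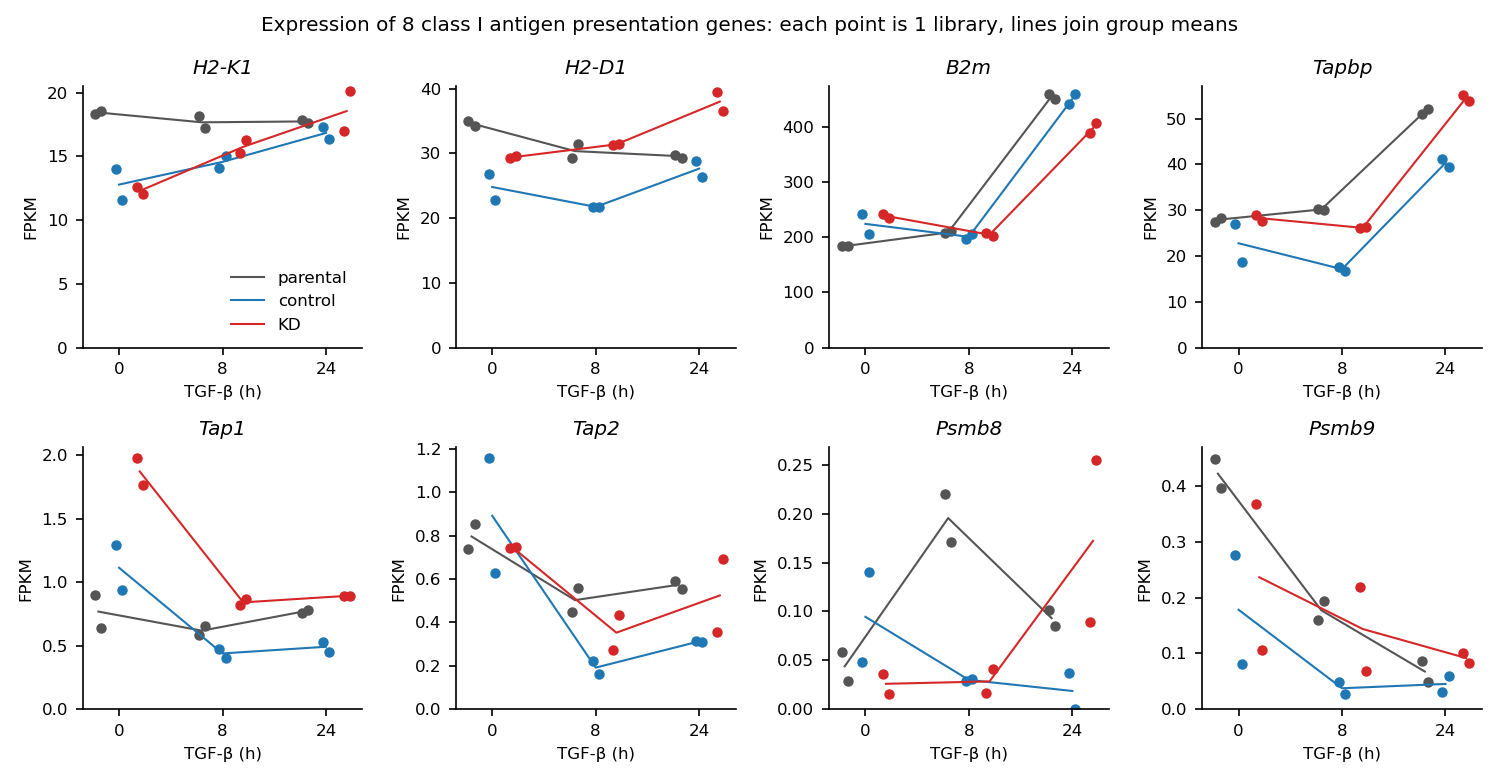
FPKM (y axis, linear from 0, a scale for each gene) of the 8 genes against time with TGF-β in h (x axis, categories), in parental (grey), control (blue) and KD (red) cells. Each point is 1 library and lines join the means of 2 libraries: B2m and Tapbp were highest at 24 h in all 3 kinds of cells, whereas Tap1, Tap2, Psmb8 and Psmb9 stayed below 2 FPKM throughout.

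A gene was tested where 2 or more libraries of a table reached 1 FPKM, which held for B2m, H2-D1, H2-K1 and Tapbp in the parental table (4 of 8 members) and for these and Tap1 in the shRNA table (5 of 8). Tap1 passed through 3 untreated libraries only (1.29 FPKM in control and 1.98 and 1.76 in KD cells), so its decline with TGF-β and its difference between untreated KD and control cells are in part built into the filter. Tap2, Psmb8 and Psmb9 passed in neither table. Changes are given on the log2(FPKM + 1) scale with their standard error (SE) from limma, fitted over all tested genes of a table, and a gene was called at a Benjamini-Hochberg adjusted p under 0.05. The 8 h and 24 h comparisons of one kind of cells share their untreated libraries.

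The first question was how class I genes moved as parental cells went through EMT. B2m read 184 and 184 FPKM in untreated cells, 207 and 210 at 8 h, and 460 and 451 at 24 h. The groups did not overlap, with a small step at 8 h and most of the rise by 24 h. Tapbp read 27.5 and 28.3 FPKM untreated, 30.2 and 30.1 at 8 h, and 51.0 and 52.2 at 24 h, the same order of groups as B2m. The heavy chains behaved otherwise. H2-D1 read 35.1 and 34.2 FPKM untreated, 29.2 and 31.5 at 8 h, and 29.8 and 29.4 at 24 h, so all treated libraries lay below the untreated ones. H2-K1 stayed within 17.2 to 18.6 FPKM in all 6 libraries. The summed level of the 9 immune markers also rose, from 1.79 and 1.81 FPKM untreated to 2.92 and 2.95 at 24 h, with 2 of the 9 at 0 in all 6 libraries. Csf1r and Cd68 were the only markers of that list to exceed 1 FPKM in any library of the study, at no more than 1.02 and 1.93. Their part in the rise of B2m and Tapbp was not tested.

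At 8 h, 2 of the 4 tested members were called higher and 1 lower in parental cells, where 22.4% of all tested genes were called higher and 32.1% lower. B2m rose by 0.18 (SE 0.04, adjusted p = 0.0045), Tapbp rose by 0.11 (SE 0.04, adjusted p = 0.049) and H2-D1 changed by −0.19 (SE 0.05, adjusted p = 0.014). The Tapbp call was lost whichever of the 4 libraries was left out (0.09 to 0.13), and the H2-D1 call without the first column of untreated cells or the first of 8 h cells (−0.17 and −0.13). At 24 h the count was again 2 higher and 1 lower of 4, against 33.4% higher and 37.1% lower of all genes, and the median change of the 4 was 0.40 against −0.02. B2m rose by 1.30 (SE 0.04, adjusted p = 5.8e-07), 2.47-fold on this scale, and Tapbp by 0.86 (SE 0.04, adjusted p = 2.7e-06), 1.82-fold. H2-D1 changed by −0.22 (SE 0.05, adjusted p = 0.0044), and for H2-K1 the change of −0.05 had a 95% interval of −0.16 to 0.05.

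Control cells, which carry the irrelevant shRNA, addressed the same question under infection and selection. B2m read 242 and 206 FPKM untreated, 196 and 205 at 8 h, and 441 and 460 at 24 h. Tapbp read 26.9 and 18.6 untreated, 17.6 and 16.7 at 8 h, and 41.3 and 39.4 at 24 h. The 2 untreated control libraries lay further apart than the 2 libraries of any other group for both genes, and the first was the higher one for all tested members. H2-K1 read 14.0 and 11.6 FPKM untreated, 14.1 and 15.0 at 8 h, and 17.3 and 16.3 at 24 h, so it ended above its start. H2-D1 read 26.8 and 22.8, then 21.7 and 21.8, then 28.9 and 26.4 FPKM, with the untreated and 24 h groups overlapping.

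At 8 h none of the 5 tested members was called higher and 2 were called lower in control cells, where 19.4% of all genes were higher and 44.9% lower. Tapbp changed by −0.37 (SE 0.13, adjusted p = 0.032) and Tap1 by −0.55 (SE 0.08, adjusted p = 0.00046). The Tap1 fall, here and at 24 h, is in part built into the filter, so its call supports nothing. The Tapbp call did not hold under quantile normalization or median scaling, without the filter, in a fit of the compared groups only, nor without either 8 h library or the first untreated one, where its change was −0.12. H2-D1 (−0.18, adjusted p = 0.062) was called without the second untreated library (−0.29). At 24 h, 3 members were higher and 1 lower, beside 25.5% and 45.1% of all genes. B2m rose by 1.01 (SE 0.07, adjusted p = 1.9e-06), Tapbp by 0.82 (SE 0.13, adjusted p = 0.0004) and H2-K1 by 0.38 (SE 0.10, adjusted p = 0.0069), and Tap1 changed by −0.50 (SE 0.08, adjusted p = 0.00063). Without the second untreated library the H2-K1 change was 0.25 and was not called. H2-D1 (0.15, adjusted p = 0.093) was called after quantile normalization (0.30) or median scaling (0.28), which bring the median change of all genes near 0, and so was H2-K1 at 8 h (0.31 and 0.30). Summed immune markers read 1.67 to 1.87 FPKM in untreated and 2.49 and 2.50 in 24 h control cells, and summed endothelial markers 0.0132 and 0.0138 against 0.409 and 0.439, and their part in these changes was not tested.

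In KD cells B2m read 242 and 235 FPKM untreated, 207 and 202 at 8 h, and 388 and 407 at 24 h. Tapbp read 28.9 and 27.7, then 26.1 and 26.2, then 55.2 and 53.9 FPKM. Both heavy chains read highest at 24 h, H2-D1 with 29.2 and 29.6, then 31.3 and 31.5, then 39.5 and 36.5, and H2-K1 with 12.6 and 12.01, then 15.2 and 16.2, then 17.0 and 20.1. None of these genes had overlapping groups between untreated and 24 h cells. The share of all genes without overlap was not computed. Of all tested genes 28.6% were called higher and 43.3% lower at 24 h, so the separation is not read as particular to the members.

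At 8 h, 1 of the 5 tested members was higher and 2 lower in KD cells, against 23% and 44.8% of all genes. H2-K1 rose by 0.33 (SE 0.10, adjusted p = 0.014), B2m changed by −0.22 (SE 0.07, adjusted p = 0.019) and Tap1 by −0.64 (SE 0.08, adjusted p = 0.00015). As in control cells, the Tap1 falls at 8 and 24 h are in part built into the filter. The B2m call was lost under median scaling (−0.10) and without any of the 4 KD libraries of that comparison, and the H2-K1 call without the second library of either group (0.29 to 0.30). Summed immune markers read 1.67 and 1.79 FPKM in untreated and 2.04 and 2.23 in 24 h KD cells, and summed endothelial markers 0.0384 and 0.0481 against 0.467 and 0.605, and their part in the members' changes at 24 h was not tested. At 24 h, 4 members were higher and 1 lower, with 28.6% and 43.3% of all genes. Tapbp rose by 0.92 (SE 0.13, adjusted p = 0.00018), B2m by 0.73 (SE 0.07, adjusted p = 1.4e-05), H2-K1 by 0.55 (SE 0.10, adjusted p = 0.00076) and H2-D1 by 0.36 (SE 0.07, adjusted p = 0.0021), and Tap1 changed by −0.60 (SE 0.08, adjusted p = 0.00019).

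**Figure D2:**
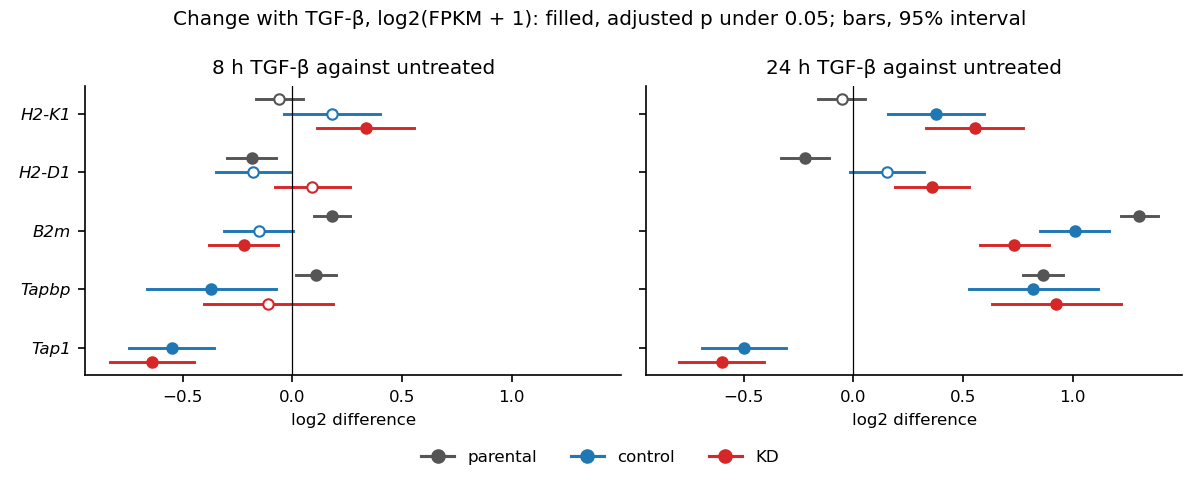
Change with TGF-β at 8 h (left) and 24 h (right) as log2 difference of FPKM + 1 from untreated cells (x axis) for the 5 members tested in at least 1 table (y axis), in parental (grey), control (blue) and KD (red) cells. Points are limma estimates, filled where adjusted p is under 0.05, and bars are 95% intervals: at 24 h B2m (0.73 to 1.30) and Tapbp (0.82 to 0.92) lie right of 0 in all 3 kinds of cells. Tap1 passed the filter through untreated libraries only, so its place left of 0 in both shRNA lines is in part built into the filter.

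Of the scarce members only Tap1 passed the filter, in the shRNA table alone, where it was tested. The values of all are given here as levels. Tap1 and Tap2 form the peptide transporter. Tap1 read 0.901 and 0.634 FPKM in untreated parental cells, 0.581 and 0.654 at 8 h, and 0.760 and 0.782 at 24 h, with untreated and 24 h groups overlapping. In control cells it read 1.29 and 0.938 untreated, 0.471 and 0.405 at 8 h, and 0.529 and 0.452 at 24 h, and in KD cells 1.98 and 1.76, then 0.815 and 0.865, then 0.891 and 0.891. Treated libraries of both shRNA lines lay below the untreated ones. Tap2 read 0.738 and 0.853 FPKM in untreated parental cells, 0.447 and 0.558 at 8 h, and 0.591 and 0.556 at 24 h. In control cells Tap2 read 1.16 and 0.626, then 0.222 and 0.160, then 0.314 and 0.310 FPKM, and in KD cells 0.742 and 0.746, then 0.271 and 0.434, then 0.357 and 0.691. In all 3 kinds of cells its 8 h libraries lay below the untreated ones. In a fit without the filter Tap2 was called lower in parental cells (−0.26 at 8 h and −0.19 at 24 h) and in control cells (−0.65 and −0.51), and not in KD cells (−0.37 and −0.20). With 0.1 as the added constant as well, the parental call at 24 h was lost (−0.41, limma adjusted p = 0.087). In the fit without the filter the KD minus control response of Tap2 was not called at 8 h (0.28, limma adjusted p = 0.59) or 24 h (0.31, adjusted p = 0.48).

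Psmb9, whose first exon lies beside that of Tap1, read 0.449 and 0.397 FPKM in untreated parental cells, 0.160 and 0.195 at 8 h, and 0.0867 and 0.0483 at 24 h, with no overlap between the 3 groups. Psmb8 read 0.0585 and 0.0291 untreated, 0.220 and 0.171 at 8 h, and 0.101 and 0.0852 at 24 h, so its order differed from that of Psmb9. In the same fit Psmb9 changed by −0.27 at 8 h (adjusted p = 0.0041) and −0.41 at 24 h (adjusted p = 0.0005) in parental cells. Psmb8 rose by 0.20 in parental cells at 8 h (adjusted p = 0.0066) and by 0.19 in KD cells at 24 h (adjusted p = 0.04), changes that the added 1 makes small. Levels this low rest on few reads, and the reads of Tap1 and Psmb9 can be told apart at their overlapping 5′ ends only if counting used strand. The study shows strand-specific RNA profiles, and the counting option is not given in the sources used here. In the shRNA table Psmb8 lay between 0 and 0.255 FPKM and Psmb9 between 0.0264 and 0.368.

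The second question was whether the same genes differ when lamin B1 is low. H2-D1, Tapbp and Tap1 were higher in KD than in control cells at 8 and 24 h, whereas B2m and H2-K1 were called at no time. At 8 h H2-D1 read 31.3 and 31.5 FPKM in KD against 21.7 and 21.8 in control cells, Tapbp 26.1 and 26.2 against 17.6 and 16.7, and Tap1 0.815 and 0.865 against 0.471 and 0.405. Replicates were close and groups apart in these 3 genes. The H2-K1 groups did not overlap either (15.2 and 16.2 in KD against 14.1 and 15.0 in control cells), and H2-K1 was not called. B2m read 207 and 202 in KD against 196 and 205 in control cells, with overlapping groups.

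In untreated cells 1 of the 5 tested members was higher and none lower in KD, beside 10.6% and 9.09% of all tested genes. That member was Tap1 (0.45, SE 0.08, adjusted p = 0.0087), and H2-D1 (0.24, adjusted p = 0.053, called after quantile normalization at 0.25 or median scaling at 0.24) and Tapbp (0.32, adjusted p = 0.11) missed the threshold. Of the 3 libraries that brought Tap1 past the filter 2 were untreated KD libraries, so this difference too is in part built into the filter and supports nothing. This comparison rests on the untreated control libraries that differed from each other. Without the first of them 4 members were called, B2m at 0.21, H2-D1 at 0.35 and Tapbp at 0.58 among them, and without the first untreated KD library none was called, Tap1 then being at 0.39. At 8 h, 3 of 5 were higher and none lower, against 19.3% and 16.5% of all genes. Tapbp was higher by 0.58 (SE 0.13, adjusted p = 0.0087), H2-D1 by 0.51 (SE 0.07, adjusted p = 0.0013) and Tap1 by 0.36 (SE 0.08, adjusted p = 0.012). Without the second control library of 8 h H2-D1 was the only member called, and without the second KD library of that time Tap1 was not called (0.34).

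At 24 h the same 3 members were higher and none lower, with 16.8% and 11.5% of all genes called. H2-D1 was higher by 0.45 (SE 0.07, adjusted p = 0.0037), Tapbp by 0.43 (SE 0.13, adjusted p = 0.038) and Tap1 by 0.34 (SE 0.08, adjusted p = 0.018). B2m was lower by 0.18 with an adjusted p of 0.084 and passed under median scaling (−0.21). The Tapbp call was lost when any of the 4 libraries of that time was left out (0.39 to 0.46) and without the filter (0.43, adjusted p = 0.076), and the Tap1 call without either control library (0.31 and 0.38).

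**Figure D3:**
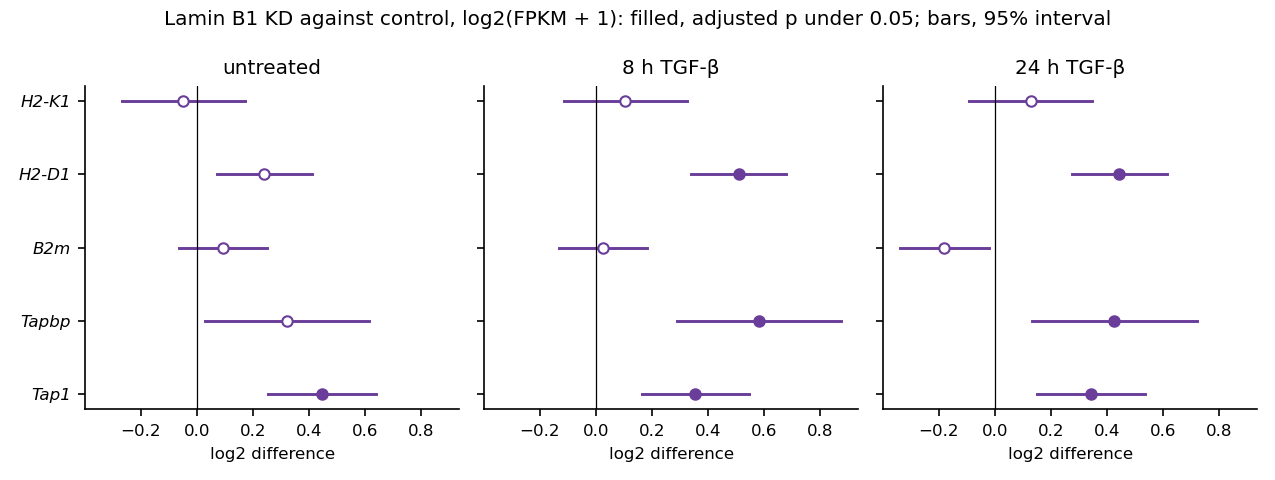
Difference between KD and control cells as log2 of FPKM + 1 (x axis) for the 5 tested members (y axis) without TGF-β and after 8 and 24 h of it. Points are limma estimates, filled where adjusted p is under 0.05, and bars are 95% intervals: H2-D1, Tapbp and Tap1 are filled and right of 0 at 8 and 24 h (0.34 to 0.58). Tap1 alone is filled in untreated cells, a difference in part built into the filter.

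Whether the response to TGF-β itself differed between KD and control cells was tested as the difference of the 2 responses. None of the 5 members was called at 8 h, beside 2.45% of genes higher and 1.61% lower, and none at 24 h, beside 2.73% and 1.98%. At an unadjusted p under 0.05, 1 member passed at each time. H2-D1 responded more in KD cells by 0.27 at 8 h (95% interval 0.03 to 0.51, adjusted p = 0.19), and B2m less by −0.27 at 24 h (95% interval −0.50 to −0.05, adjusted p = 0.14). The interval of Tapbp at 24 h, −0.31 to 0.52, leaves room for a difference in either direction. Without the second untreated control library H2-D1 (0.38 at 8 h and 0.32 at 24 h) and Tapbp (0.51 and 0.36) were called, and without the first one B2m was called at 24 h (−0.39) and Tapbp turned to −0.15 there.

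Lamin B1 peaks were looked for from 2500 bp upstream of each gene to its 3′ end. ATAC peaks were looked for within 500 bp of the outermost start of its GENCODE gene model. Peaks are those the authors called with MACS on mm9, with 1 library per time point, so no count or score below has an error between replicates. A lamin B1 peak lay at 3 of the 8 members in untreated cells (Tapbp, Tap1 and Psmb9), at 4 at 8 h (H2-K1 in addition) and at 1 at 24 h (Tapbp). The share among 21177 matched genes was 19.9% (95% Wilson interval 19.4 to 20.5), 38.9% (38.3 to 39.6) and 29.5% (28.9 to 30.1). Among genes at 1 FPKM or more the shares were 34.2%, 57.2% and 44.7%. With only 8 genes, of which 7 lie on chromosome 17 and 2 share a peak, these counts are a description. No lamin B1 peak was listed for B2m, H2-D1, Tap2 or Psmb8. The lists held 4645, 10484 and 7083 lamin B1 peaks, and 9782, 10340 and 33811 ATAC peaks, with no depth given.

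Tap1 (chr17:34324498-34334170, plus strand) and Psmb9 (chr17:34318932-34324697, minus strand) shared their lamin B1 peak. It was chr17:34324008-34325600 with a MACS score of 69.8 in untreated cells, where it covered the whole interval printed above, and chr17:34324348-34325460 with a score of 103 at 8 h, where it covered the end next to Tap1, and no peak was listed there at 24 h. Accessible chromatin was listed at the same place at all 3 times, with scores of 53.7, 56.3 and 265. The score of 24 h exceeded 72.0% of its list, those of 0 and 8 h 5.70% and 15.0% of theirs. The H2-K1 peak at 8 h, chr17:34136381-34137174, lay 104 to 897 bp inside the gene (chr17:34132962-34137278, minus strand) with a score of 57.2, near the lower limit of 50.

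Tapbp (chr17:34052844-34066235, plus strand) was the member with most lamin B1 peaks. In untreated cells 5 peaks were listed, among them 1 over the outermost gene start (score 119), which also covers the start of Zbtb22, 1 over the RefSeq start whose upstream bases are printed above (score 101) and 1 across the 3′ end (score 98.3), which covers the start of Rgl2. At 8 h the peaks at the outermost start (score 160) and at the 3′ end (score 248) were listed and the one at the RefSeq start was not, and at 24 h the same places read 56.5 and 147. Because neighbouring genes start under 2 of these places, the peaks cannot be assigned to Tapbp alone.

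ATAC peaks lay at the promoters of 5 members in untreated cells (H2-D1, B2m, Tap1, Psmb9 and Tapbp), 3 at 8 h (B2m, Tap1 and Psmb9) and 6 at 24 h (these 3 with H2-K1, H2-D1 and Tapbp), beside 30.7% (95% Wilson interval 30.0 to 31.3), 25.05% (24.5 to 25.6) and 47.1% (46.4 to 47.8) of all matched genes. Among genes at 1 FPKM or more the shares were 57.8%, 47.4% and 85.5%. At each time Tap1 and Psmb9 were counted through the same peak. The untreated Tapbp peak lay over the outermost start and also covered the start of Zbtb22, and it did not reach the RefSeq start. B2m (chr2:121973422-121978819, plus strand), whose RNA rose 2.47-fold by 24 h in parental cells, had an ATAC peak over its start at all times with scores of 145, 62.9 and 311. These exceeded 79.7%, 30.2% and 78.5% of their lists, so the peak ranked no higher at 24 h than in untreated cells. H2-D1 (chr17:35399675-35404444, plus strand) had scores of 69.4 untreated and 257 at 24 h and no listed peak at 8 h, and H2-K1 a score of 88.7 at 24 h only. The outermost start of Tapbp had scores of 50.2 and 233 at 0 and 24 h, and its RefSeq start 126 at 24 h only. Tap2 (chr17:34340472-34353266, plus strand) had 1 ATAC peak, at 24 h and 6867 bp inside the gene, and Psmb8 (chr17:34334666-34338399, plus strand) none. The 24 h list is the longest of the 3, and with lists cut to equal length 3 members in place of 6 kept a promoter peak at 24 h. A peak just under the caller's limit is not listed, so a missing peak at 8 h is not a measured absence.

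**Figure D4:**
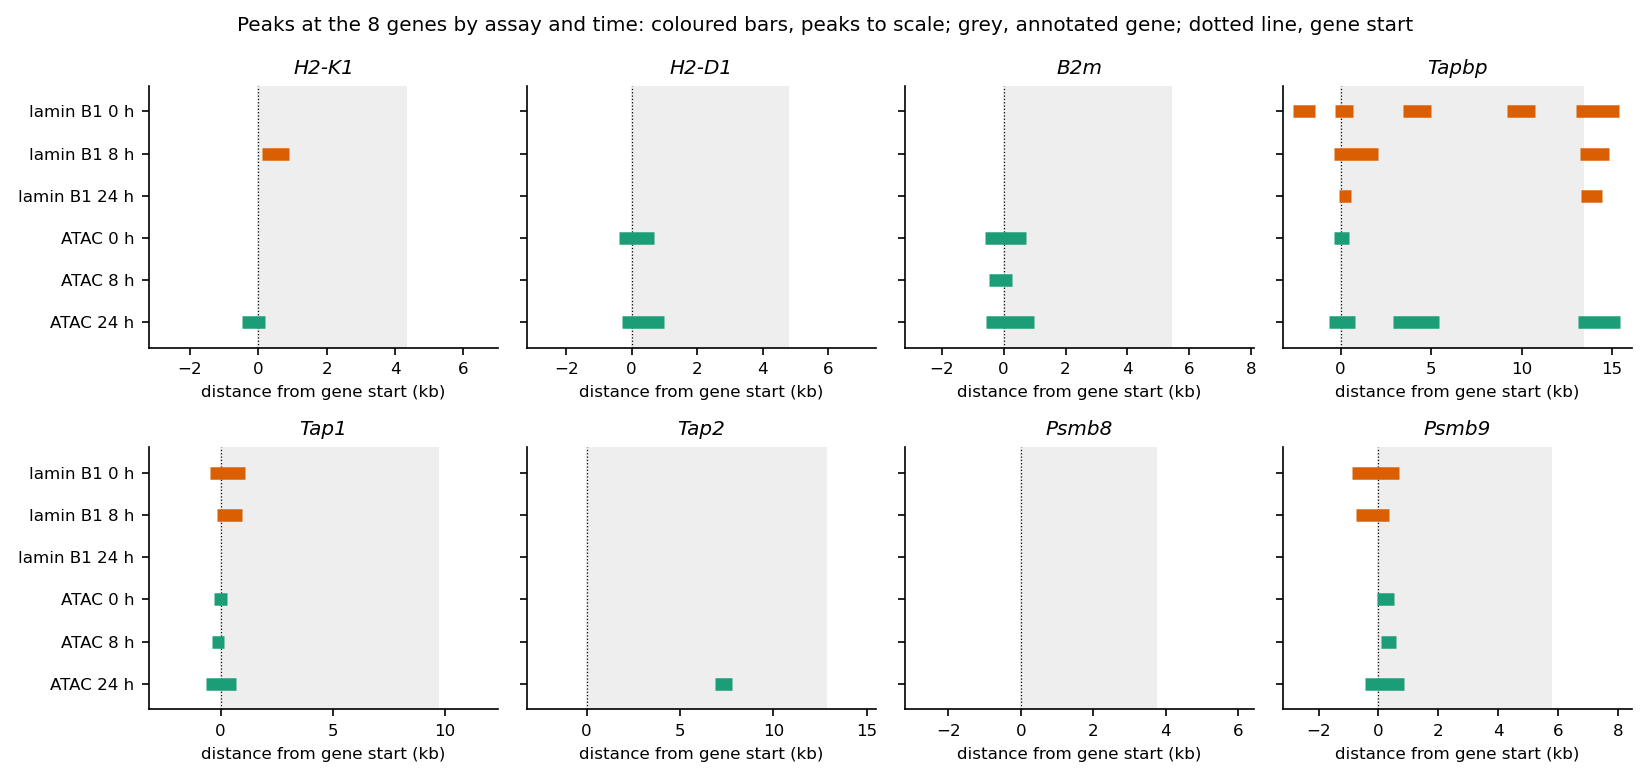
Peaks at the 8 genes, as distance from the gene start in kb along the gene (x axis, a scale for each gene), for lamin B1 (orange) and ATAC (green), by time with TGF-β (0, 8 and 24 h). Bars are peaks to scale, grey shading is the annotated gene and the dotted line its start: lamin B1 peaks lie at Tapbp at all times, at the shared Tap1 and Psmb9 start at 0 and 8 h and at H2-K1 at 8 h, and the other members have none.

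The genes that work with the members were read from lists written for the pathway. Among 25 other class I and class I-like chains, of which 16 were tested, 7 rose and 1 fell in parental cells at 24 h, with a list median of 0.24 against −0.02 for all genes. Cd1d1, which presents lipids to NKT cells, read 4.27 and 4.12 FPKM untreated and 16.2 and 15.8 at 24 h, a rise of 1.71 (limma adjusted p = 1.5e-06), and H2-Q4 changed by −0.61. In control cells 5 rose and 2 fell at 24 h and in KD cells 6 rose and 1 fell, with Cd1d1 the largest rise in each (1.64 and 1.52). In KD relative to control cells 2 of the 16 were higher without TGF-β, 8 after 8 h and 6 after 24 h (10.6, 19.3 and 16.8% of all genes were higher), and none was lower at any of the 3 times. The list medians were 0.06, 0.34 and 0.21, against −0.01, 0.01 and 0.02 for all genes. Fcgrt, the neonatal Fc receptor, read 2.60 and 3.07 FPKM in KD against 0.967 and 0.839 in control cells at 8 h (1.01, adjusted p = 0.001) and was higher by 1.05 at 24 h. H2-T23, the mouse Qa-1 molecule, was the largest difference in untreated cells, with 12.2 and 12.3 against 9.92 and 9.29 FPKM (0.32, adjusted p = 0.01). Several of these chains resemble each other and the members in sequence, so shared reads may link their values.

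Over all tested genes, the shares called at 24 h against which each list can be read were 33.4% higher and 37.1% lower in parental, 25.5% and 45.1% in control, and 28.6% and 43.3% in KD cells. All 11 genes of peptide loading and trimming were tested. In parental cells 5 rose and 1 fell at 24 h (median 0.07), in control cells 6 rose and 1 fell (0.19), and in KD cells 7 rose and 1 fell (0.43). Erap1, which trims peptides in the endoplasmic reticulum, rose by 0.68 in parental cells, and the largest rises in control and KD cells were those of the chaperones Hspa5 (0.71) and Calr (0.95). Calr, calreticulin, which holds the heavy chain during loading, read 424 and 428 FPKM in untreated and 850 and 800 in 24 h KD cells. Bcap31 was the gene with the largest fall in all 3 (−0.11, −0.19 and −0.24). Between KD and control cells 8 of 11 were higher and none lower at 8 h, where 19.3% of all genes were higher and 16.5% lower. The untreated comparison had 2 genes in each direction (10.6% and 9.09% of all genes), and that of 24 h 5 higher with 1 lower (16.8% and 11.5%). Tapbpl, the tapasin relative TAPBPR, led at 8 h (0.41, adjusted p = 0.0052) and 24 h (0.35, adjusted p = 0.013), and Lnpep was lower at 24 h (−0.48).

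Of 6 immunoproteasome partners and activators 4 rose and 2 fell in parental cells at 24 h, 2 rose and 2 fell in control and likewise in KD cells (medians 0.23, 0.002 and 0.09, beside −0.02, −0.13 and −0.10 for all genes). Psme2, a subunit of the PA28 activator, rose by 0.46, 0.49 and 0.62 in the 3 kinds of cells, and Psmb10, the remaining immunoproteasome subunit, was lower in KD than in control cells at 8 h (−0.26). Of 14 subunits of the constitutive core 2 rose and none fell in parental cells at 24 h, 1 rose and 5 fell in control cells, and 4 rose and 3 fell in KD cells (medians −0.03, −0.08 and 0.03). Psma4 was the largest rise in each (0.36, 0.48 and 0.36). At 8 h 2 core subunits were higher and 1 lower in KD than in control cells, where 19.3% of all genes were higher and 16.5% lower. The remaining 11 were not called. Of 6 cytosolic peptidases, which trim or destroy peptides before transport, 1 rose and 3 fell in parental and in KD cells at 24 h (medians −0.18 and −0.23), and 1 rose and 4 fell in control cells (−0.42). Thop1 fell most in parental and KD cells (−0.80 and −0.78) and Blmh in control cells (−0.76), whereas Tpp2 rose in each (0.38, 0.28 and 0.18). None of the 6 was higher in KD than in control cells at 8 h and 2 were lower, Lap3 by −0.22, beside the same shares of all genes.

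**Figure D5:**
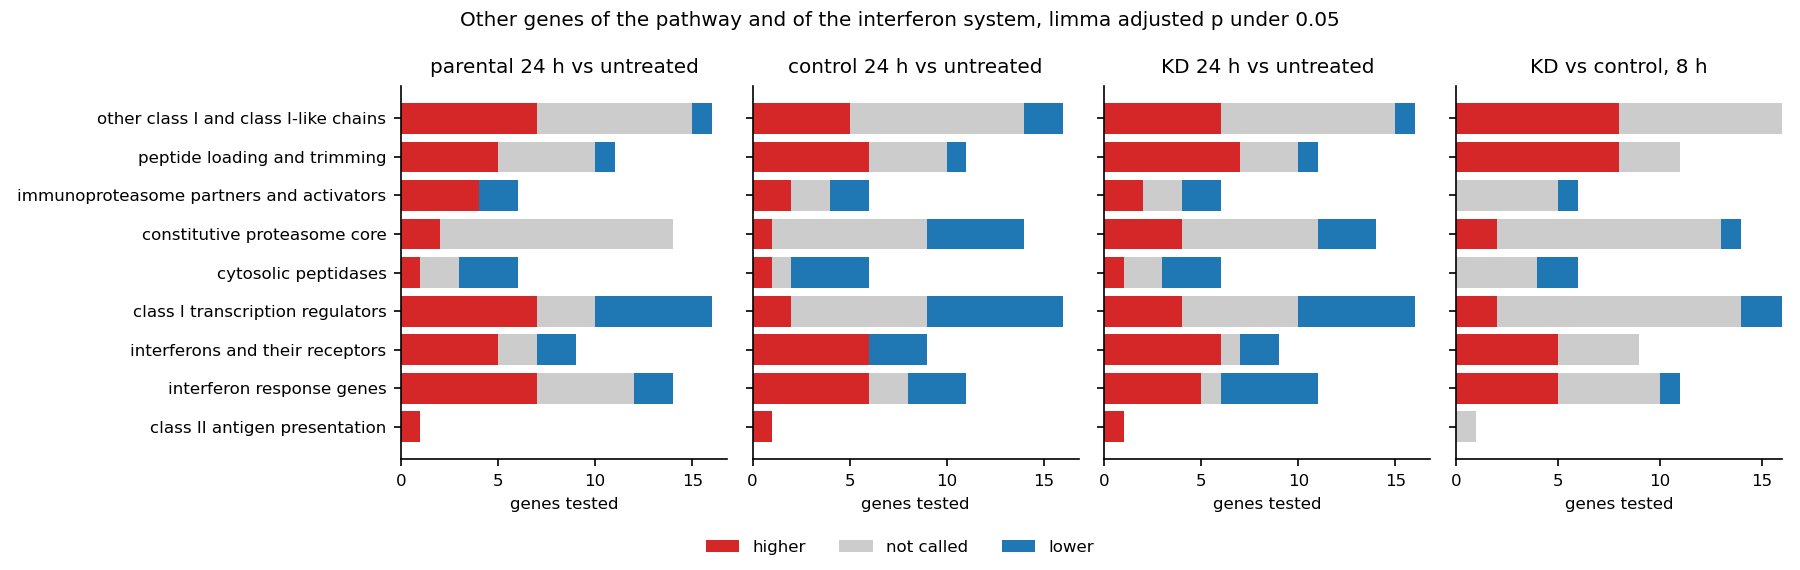
Number of tested genes (x axis) of 9 lists (y axis) that were higher (red), not called (grey) or lower (blue) at a limma adjusted p under 0.05, at 24 h against untreated in parental, control and KD cells and in KD against control cells at 8 h. In the last panel 8 of 16 other class I chains and 8 of 11 loading and trimming genes are red and none of them is blue. Of all tested genes 19.3% were higher and 16.5% lower there.

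Regulators and interferon genes were listed as well, because interferons control the pathway elsewhere. Of 16 tested class I transcription regulators 7 rose and 6 fell in parental cells at 24 h, 2 rose and 7 fell in control cells (medians 0.11 and −0.11), and 4 rose and 6 fell in KD cells, counts near the shares of all genes in parental cells and, for falls, in control and KD cells. Irf1, an activator of class I genes, rose in all 3 (0.62, 0.83 and 0.71) and read 27.3 and 26.2 FPKM in untreated and 41.3 and 42.1 in 24 h parental cells. Nfyb, a subunit of the factor that binds the NF-Y box printed above, was the largest fall in all 3 (−0.52, −0.75 and −0.91). In KD against control cells 2 were higher and 2 lower at 8 h, Nfyb by −0.18, beside 19.3% and 16.5% of all genes. Nlrc5, the class I transactivator, was picked out after its values were seen and did not exceed 0.0153 FPKM in any of the 18 libraries.

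Of 16 interferons and receptors 9 were tested, and these held receptor and kinase genes. Ifna1 and Ifnl2 were listed at 0 in all 18 libraries and Ifnb1 and Ifng did not exceed 0.0653 and 0.0328 FPKM, genes that were likewise picked out after their values were seen. At 24 h 5 rose and 2 fell in parental, 6 rose and 3 fell in control and 6 rose and 2 fell in KD cells (medians 0.28, 0.36 and 0.39). Ifngr2, a chain of the interferon-γ receptor, read 76.7 and 77.9 FPKM in untreated and 28.3 and 29.5 in 24 h parental cells (−1.39, adjusted p = 1.9e-06), and Jak2 rose by 0.67. In KD against control cells 5 of the 9 were higher and none lower at 8 h, Jak2 by 0.45, beside 19.3% and 16.5% of all genes. At 24 h 3 were higher and none lower, Ifngr1 by 0.60, beside 16.8% and 11.5%.

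Of 32 interferon response genes 14 were tested in the parental and 11 in the shRNA table. In parental cells 7 rose and 2 fell at 24 h (median 0.32), Irgm1 by 1.39, Oasl2 by 0.99 and Parp14 by 0.83, with Mx1 at −2.68 and Bst2 at −0.26. Mx1, an antiviral GTPase, read 6.03 and 6.29 FPKM in untreated and 0.0788 and 0.156 in 24 h cells. Of all tested genes 33.4% were higher and 37.1% lower there. The direction of Mx1 is built into its selection, as given below, so that Bst2 is the only other fall. In control cells 6 rose and 3 fell and in KD cells 5 rose and 5 fell at 24 h (medians 0.18 and −0.02), and the 3 largest falls in each were Mx1, Ifit2 and Bst2. Mx1 passed the filter in both tables through untreated libraries alone, and Oasl2 in the parental table through treated ones alone, so their directions are built into their selection. In KD relative to control cells 5 of the 11 were higher without TGF-β, at 8 h 5 were higher with 1 lower, and at 24 h 2 with 1, beside 10.6%, 19.3% and 16.8% of all genes higher. The 24 h count is near the share of all genes. Ddx58, which encodes the RNA sensor RIG-I, was the largest difference at all 3 times, by 0.59, 0.58 and 0.62, with 2.88 and 2.88 FPKM in KD against 1.66 and 1.55 in control cells at 8 h. Of 11 class II genes only H2-DMa passed the filter, and it did so through the 24 h libraries alone (1.05 to 1.48 FPKM, against 0.372 to 0.657 in all others of both tables), so that a rise at 24 h is built into its selection. Cd74, the class II invariant chain, was looked up after the values were seen and did not exceed 0.202 FPKM.

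The genes most like the members were ranked by Pearson's r, over the 12 shRNA libraries, with the mean of the standardised log2(FPKM + 1) of the 5 tested members. Of 11445 other genes the highest were Cdk5rap3 (0.986), Pigs (0.983), Ctso (0.982), Aph1b (0.976) and Tmem231 (0.975). Over the 6 parental libraries, with the 4 members tested there, the same genes had r of 0.564, 0.958, 0.751, 0.598 and 0.623. All points of a table share groups and depth, and the values are descriptions. Among the members themselves B2m and Tapbp were most alike, with r of 0.879 over the 12 shRNA and 0.999 over the 6 parental libraries. H2-K1 and B2m had r of 0.659 over the shRNA and −0.41 over the parental libraries. Over the shRNA libraries Tap1 had r of −0.51 with H2-K1, −0.22 with B2m, 0.085 with Tapbp and 0.33 with H2-D1. The mean used for the ranking therefore joins members with unlike profiles, and a high r with it is not likeness to each member.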

How the data were processed

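RNA levels came from 6 parental and 12 shRNA libraries of NMuMG cells, and lamin B1 and ATAC peaks from 1 library per time point, each ChIP library being a mix of parallel ChIPs. The authors deposited RNA levels as FPKM per gene and library, on mm9, and the submitters' processing notes name Bowtie, TopHat and Cufflinks without roles or versions. Both FPKM tables lack a header, so columns were assigned in the order in which the table titles in the labels name them. Parental columns carry no replicate number. The deposited peak lists hold mm9 coordinates with the MACS score of each peak, a measure of its strength that is at least 50 in every list. Depth is unknown, since FPKM do not keep the number of reads. Steps between low values placed the depths of libraries at 92.7 to 116% of the first parental and 79.0 to 112% of the first shRNA library. Replicates correlated with r of 0.983 to 0.994 and none was identical.

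FPKM were analysed as log2 after adding 1, for genes reaching 1 FPKM in 2 or more libraries (11309 parental and 11450 shRNA genes), with the two-sided moderated test of limma 3.58.1 (R 4.3.3; variance trend), all libraries of a table in 1 fit, and Benjamini-Hochberg adjustment over all tested genes. The fits were tested on simulated data. Peaks were placed with GENCODE M1 on mm9, where 21177 of the 23295 symbols of the parental table matched. Promoter windows came from RefSeq (GRCm38.p6) and were matched to mm9 by sequence alone, with Python 3.11.15, pandas 2.3.3 and scipy 1.17.1.

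The members and gene lists (other class I chains, loading and trimming, immunoproteasome partners, constitutive core, cytosolic peptidases, transcription regulators, interferons and receptors, interferon response genes, class II, and markers of epithelial, immune and endothelial cells) were chosen with earlier results of these data known. Named from each list and comparison were the called genes with the largest rise and the largest fall, up to 3 each way for interferon response genes, and the 5 genes most like the members. Alternatives were 0.1 as the added constant, all genes without a filter, median scaling, quantile normalization, a fit of the compared groups, a 2-fold minimum, a replicate block, leaving out each library, higher-scoring peaks, lists of equal length and other windows. No filter together with 0.1 was added after the data were seen. The Hi-C data were not used here. The values of 1 gene that the naming rule picks are not reported here.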

Additional observations from a re-analysis of the deposited data

Results flagged for a closer look

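Genes whose response to TGF-β differed between KD and control cells by the test of that difference (limma, adjusted p under 0.05) were looked for among the members and the listed genes. No member passed. At 8 h the response was larger in KD cells for H2-Q10, a class I-like chain, by 0.62 (SE 0.12, adjusted p = 0.035), with 1.06 and 0.991 FPKM untreated and 2.64 and 2.22 at 8 h in KD against 1.51 and 1.17, then 1.56 and 1.59 in control cells. Calr, calreticulin, also responded more at 8 h, by 0.29 (SE 0.06, adjusted p = 0.04), from 424 and 428 to 599 and 627 FPKM in KD and from 476 and 477 to 569 and 553 in control cells. Ifit2, an interferon-induced gene, differed by −0.47 at 8 h (adjusted p = 0.048), falling further in KD cells. At 24 h Socs1, a feedback inhibitor of interferon signalling, differed by −0.52 (SE 0.09, adjusted p = 0.023), with 1.13 and 1.21 FPKM untreated and 0.866 and 0.955 at 24 h in KD against 0.878 and 0.808, then 1.25 and 1.42 in control cells. Mx1 differed by −0.36 at 24 h (adjusted p = 0.046), where control libraries read 0 and 0.0284 FPKM, so its fold there depends on the added constant. It passed the filter through untreated libraries alone, and in untreated cells it was higher by 0.40 in KD than in control cells. Groups of 2 libraries are too small for a check of outlying libraries.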

How the results depend on the processing

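Counts of members called, or of members with a peak, were within 1.5 times of the main count in 127 of 165 recalculations. With a 2-fold minimum the count of called members fell to 1 in parental and in control cells at 24 h. It fell to 0 in parental, control and KD cells at 8 h and in KD cells at 24 h. In KD against control cells it was 0 at all 3 times. Without the filter it was 6 in parental cells at 8 h (6 also with the constant of 0.1) and 5 at 24 h, since scarce members then entered. With only the compared groups fitted it was 0 in control and 5 in KD cells at 8 h and 0 in untreated KD against control cells. That last comparison gave 2 under quantile normalization, 2 under median scaling and 2 with a replicate block. Replicate numbers did not pair the shRNA libraries (15 pairs of groups, r −0.14 to 0.37, 2 over 0.1), and the block moved no other count by over 1.5 times, though it also called H2-D1 in control cells at 8 h (−0.18). No paired analysis was possible in the parental table because its columns carry no number. Leaving out 1 library gave 1 to 2 in parental cells at 8 h, 1 to 4 in control and 1 to 2 in KD cells at 8 h, 0 to 4 in untreated, 1 to 3 in 8 h and 1 to 2 in 24 h KD against control cells, and 0 to 2 for the difference of responses at 8 h and 0 to 2 at 24 h. A group left with 1 library was taken to vary like the others.

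Directions turned in 12 recalculations of single genes, none of them called with the settings of the report. Tapbp in KD cells at 8 h went to 0.0042 under median scaling. Leaving out 1 library moved untreated KD against control from −0.17 to 0.080 for H2-K1 and from −0.022 to 0.21 for B2m, and B2m at 8 h from −0.0050 to 0.058. The response difference moved from −0.18 to 0.049 for B2m and from −0.21 to 0.030 for Tap1 at 8 h, and from −0.22 to 0.018 for Tap1 and from −0.15 to 0.36 for Tapbp at 24 h. The constant of 0.1, with or without the filter, gave Tap1 response differences of 0.094 at 8 h and 0.036 at 24 h. The causes were not tested. At or above the median score of each list, ATAC promoter peaks numbered 1 untreated and 0 at 8 h and lamin B1 promoter peaks 0 at 24 h. With lists of equal length these were 3 for ATAC and 0 for lamin B1 at 24 h. Unknown depth and 1 library per time point limit every peak comparison.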
